A study of Homo sapiens with 24 samples.

Results

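The response of OCI-AML3 to the menin inhibitor MI-503 was measured by comparing 3 libraries of MI-503-treated cells with 3 libraries of DMSO-treated cells, 6 of the 24 libraries in the series. OCI-AML3 is an established human acute myeloid leukaemia line with mutant NPM1 and no MLL (KMT2A) fusion, so it stands for 1 line only. Treated cells received 2.5 µM MI-503 for 4 days and control cells the solvent DMSO for 4 days. An ERCC synthetic RNA mix was added to a fixed number of harvested cells of each group before extraction, and polyadenylated RNA was sequenced. Genes were kept where the deposited value was at least 10 in at least 3 libraries, which left 15700 of the 25680 genes in the table. The third-highest value was 10.1 for the nearest gene inside this limit and 9.80 for the nearest outside it, and 3736 genes had no read in any of the 6 libraries. The other libraries come from MOLM13 and MV411, lines with an MLL fusion and an internal tandem duplication of FLT3. They were used here only to test where the MI-503 effect differed between lines.

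Menin, the product of MEN1, is a scaffold that tethers the histone methyltransferase MLL and its fusions to chromatin. In leukaemias with an MLL fusion, and in those with mutant NPM1, menin and MLL keep HOX genes and their cofactor gene MEIS1 active, and this programme holds myeloid progenitors in an immature, dividing state. MI-503 occupies the pocket of menin that MLL binds. Loss of MEIS1 and gain of myeloid surface markers are the usual readouts of such compounds.

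The 6 libraries were deeply sequenced, with 44364964, 56174189 and 61848977 reads assigned to genes for MI-503 and 65458071, 72994481 and 60855497 for DMSO. Between 19321 and 19456 genes had a read in the MI-503 libraries and between 19118 and 19299 in the DMSO libraries. Deposited values were reads divided by 1 factor per library, and these factors did not centre the genes. The median shift left in the deposited values was -0.20, -0.29 and 0.27 on the log2 scale in the MI-503 libraries and -0.17, 0.35 and 0.07 in the DMSO libraries. The groups overlapped, and the median gene was lower by 0.16 with MI-503 (0.895-fold, two-sided exact permutation test p = 0.5, where 3 against 3 libraries cannot go below 0.1). Results are therefore given after division by median-of-ratios factors of the genes, so that each change is relative to the median gene, and each list's calls on the deposited scale are set beside its count. Single genes are given on the median-of-ratios scale where no deposited value is named. "Rose" and "fell" below mean past an adjusted p of 0.05 on the median-of-ratios scale by limma with Benjamini-Hochberg adjustment, and changes are log2 of value + 1, MI-503 minus DMSO, ± SE with n = 3 libraries per group. Replicates agreed least for MI-503 library 1, whose chi-square per degree of freedom over genes was 8.92 and 8.74 against the other MI-503 libraries, compared with 1.59 between those and 2.54 to 4.46 among DMSO libraries.

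**Figure D1:**
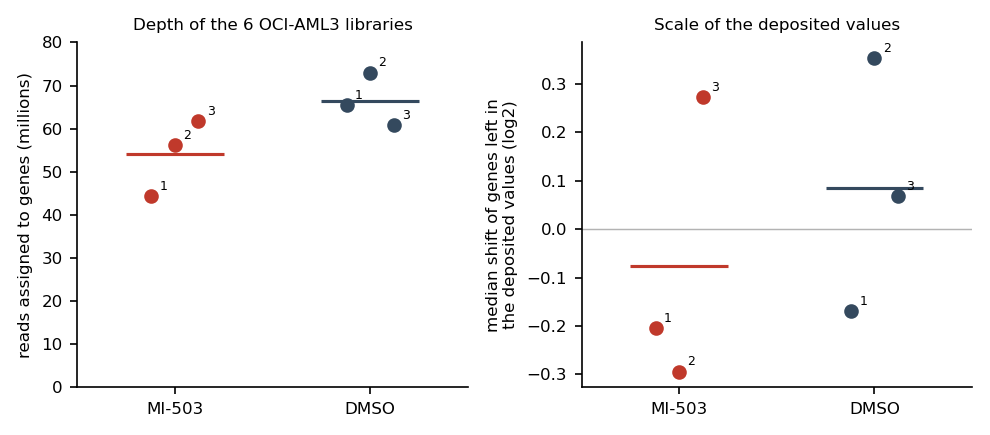
Reads assigned to genes, in units of 1e6 reads (left), and the median shift of genes left in the deposited values on the log2 scale (right) for the 3 MI-503 and 3 DMSO libraries of OCI-AML3, numbered by replicate, with horizontal lines at the group means. The deposited scale spreads replicates of 1 group by up to 0.57 log2 units, and the groups overlap.

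The line's myeloid identity was checked with 9 markers. CD33, ANPEP, SPI1, CEBPA, MPO, LYZ, FLT3 and CSF3R were above the minimum in this comparison, while IL3RA was under it. Among markers of other cell types, 3 of 20 erythroid and megakaryocyte genes, 3 of 13 T and NK cell genes in the table, 4 of 11 B cell genes and 6 of 15 epithelial and fibroblast genes were kept. Their summed values were 414 to 845 with MI-503 and 402 to 1048 with DMSO for the erythroid and megakaryocyte list, and 10732 to 11346 and 11099 to 11546 for the T and NK list, most of it NCAM1. The B cell sum was 125 to 127 with MI-503 and 412 to 432 with DMSO, and the epithelial and fibroblast sum 2773 to 3036 with MI-503 and 1409 to 1488 with DMSO, led by PECAM1. HBD, CD2, CD8B, KLRD1 and EPCAM had no read. These are bulk RNA values, in which fewer cells of a type and less RNA per cell cannot be told apart.

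MI-503 changed the RNA of most measured genes by a small amount and of 1110 genes by at least 2-fold (7.07%). On the median-of-ratios scale 10291 of 15700 genes passed (65.5%), of which 5145 rose (32.8%) and 5146 fell (32.8%). The count of every list below is to be read beside these shares of all genes. Of those 1110, 593 were higher (3.78%) and 517 lower (3.29%), and with equal library totals 6070 genes were called higher and 4261 lower. On the deposited scale 1676 genes passed (10.7%), 605 higher (3.85%) and 1071 lower (6.82%), and 1673 of these were called in the same direction on the median-of-ratios scale. The wider deposited scale had a median SE of 0.27, against 0.05 after median-of-ratios scaling. Its p-values pool the library shifts over genes as if each gene varied independently and so are too small, and with the spread of each gene taken alone 0 genes passed on that scale by a linear model with Benjamini-Hochberg adjustment, with 2303 at an unadjusted p under 0.05. edgeR and DESeq2 on the recovered reads with the deposited factors called 1612 and 1923.

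MEIS1 fell most among the genes that menin and MLL are known to hold active, of which a part passed. MEIS1, the homeobox cofactor of HOX proteins (GRCh38 chromosome 2, 66435125 to 66573869), measured 477, 452 and 483 in the MI-503 libraries, against 2855, 2857 and 2959 in the DMSO libraries. Every MI-503 library was far below every DMSO library. The fall left 0.163 of the DMSO mean (-2.62 ± 0.0431, adjusted p = 3.10e-13), and the change was -2.78 on the deposited scale, where it also passed. PBX3, which binds DNA beside MEIS1, measured 458, 385 and 387 with MI-503, against 921, 977 and 915 with DMSO, and fell to 0.437 (-1.20 ± 0.0697). Of the 8 MEIS and PBX genes 1 rose and 3 fell, with a median of -0.22, and on the deposited scale 0 were called higher and 2 lower. PKNOX1, a further TALE homeobox gene, changed by -0.21 ± 0.0396.

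FLT3, the receptor tyrosine kinase of progenitors, measured 1926, 1862 and 1859 with MI-503, against 3992, 4003 and 3830 with DMSO. The change was -1.07 ± 0.0339 (adjusted p = 9.51e-11), and no library of 1 group entered the range of the other. BCL2, the inhibitor of apoptosis, behaved alike in size, with 7686, 7719 and 7670 in MI-503 libraries and 15734, 15722 and 15734 in DMSO libraries (-1.03 ± 0.0238). Of 19 tested MLL and menin targets outside HOX, 1 rose and 17 fell, against 32.8% of all genes in each direction. Their median change was -0.63, against 0.00 over all genes, and 5 of the 19 fell at least 2-fold. On the deposited scale 1 was higher and 9 were lower. IGF2BP2, an RNA-binding protein gene, changed by -1.57 ± 0.0287, RUNX2, a transcription factor gene, by -1.32 ± 0.0365 and SATB1, a chromatin organiser gene, by -1.06 ± 0.0284. TET1, which oxidises methylcytosine, was the 1 target that rose (0.97 ± 0.0846).

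Other leukaemia genes of this programme moved less. CDK6, a cell-cycle kinase gene, changed by -0.63 ± 0.0261, MEF2C, a transcription factor gene, by -0.26 ± 0.0358 and MYB, a progenitor transcription factor gene, by -0.24 ± 0.0284. Deposited-scale changes were -0.79 for CDK6, which passed, and -0.42 for MEF2C and -0.40 for MYB, which did not. MYC, the growth regulator, measured 30738, 31048 and 30244 with MI-503, against 29969, 29202 and 26428 with DMSO. It rose by 0.11 ± 0.0396 (adjusted p = 0.0319), but its change on the deposited scale was -0.053, so its direction depends on the scale.

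MEN1 itself, the gene of the drug's target, did not pass (0.999-fold, adjusted p = 0.982). It measured 1997, 2194 and 2235 in MI-503 libraries and 2149, 2138 and 2136 in DMSO libraries, ranges that overlap. Of 17 menin, MLL and DOT1L complex genes 4 rose and 8 fell, with a median of -0.07 and no member past 2-fold, against 32.8% of all genes called in each direction. None held on the deposited scale, where 0 of the 17 passed by limma (1 at an unadjusted p under 0.05), 0 by edgeR and 0 by DESeq2. PSIP1, which encodes the chromatin tether LEDGF, changed by -0.47 ± 0.0329, SETD2, a histone H3 lysine methyltransferase gene, by -0.35 ± 0.0317, KMT2A by -0.25 ± 0.0369, DPY30, a core subunit gene, by 0.63 ± 0.0471 and MLLT3 by 0.44 ± 0.0817. NPM1, mutant in this line, changed by -0.15 ± 0.0229, and DNMT3A did not pass (-0.05, adjusted p = 0.355).

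**Figure D2:**
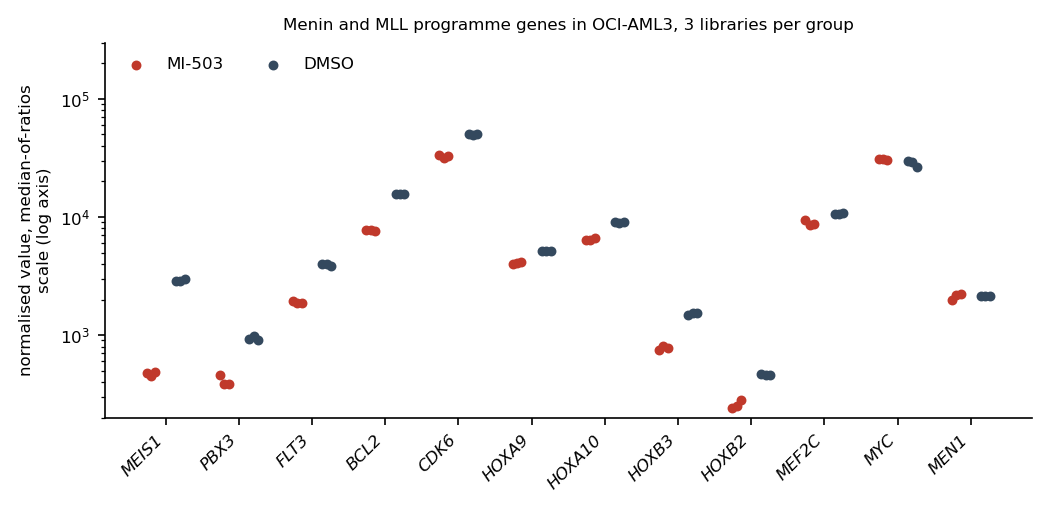
Normalised value of 12 menin and MLL programme genes in the 3 MI-503 and the 3 DMSO libraries, on the median-of-ratios scale with a log axis. MEIS1 is the most separated gene (477, 452 and 483 with MI-503 and 2855, 2857 and 2959 with DMSO), while MEN1 libraries overlap and MYC lies only slightly higher with MI-503 (-0.053 on the deposited scale).

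HOX genes fell less than MEIS1. All 11 HOXA genes were kept, and 0 rose, 7 fell and 4 did not pass, with a median of -0.42 and none past 2-fold. Of the 11, 0 were called higher and 4 lower on the deposited scale. HOXA9, the HOX gene whose protein partners that of MEIS1 in leukaemia, measured 3971, 4047 and 4167 with MI-503, against 5166, 5113 and 5142 with DMSO. The groups did not overlap, and the gene fell to 0.790 of the DMSO level (-0.34 ± 0.0296, adjusted p = 7.22e-07). HOXA10 changed by -0.48 ± 0.0266, and because its gene model overlaps that of HOXA9, reads between them are hard to assign. HOXA13 changed by -0.67 ± 0.0283, HOXA7 by -0.92 ± 0.227 at a low level (27.3, 23.7 and 15.9 with MI-503 and 48.7, 42.2 and 36.5 with DMSO), HOXA6 by -0.75 ± 0.134 and HOXA5 by -0.65 ± 0.163. Of these 6 genes HOXA9 and HOXA10 did not pass on the deposited scale.

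Of 9 tested HOXB genes, which lie in a cluster that NPM1-mutant leukaemias also express, 2 rose, 4 fell and 3 did not pass, with a median of -0.19, and on the deposited scale 0 were called higher and 2 lower. HOXB3 measured 743, 813 and 778 in MI-503 libraries and 1474, 1529 and 1547 in DMSO libraries, and HOXB2 measured 239, 253 and 280 with MI-503 and 470, 458 and 455 with DMSO. Both fell, by 0.96 and by 0.84 on the log2 scale, and passed on the deposited scale as well. HOXB9 changed by -0.30 ± 0.0565 and HOXB13 by 0.31 ± 0.0714, while HOXB4 did not pass (-0.10, adjusted p = 0.199).

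The most uniform change was a fall of ATF4 amino-acid stress genes. ATF4 is a transcription factor whose translation rises when amino acids run short or the kinases of the integrated stress response are active, and it switches on amino acid synthesis, amino acid import and tRNA charging. All 31 listed genes were tested, 0 rose and all 31 fell, 25 of them at least 2-fold, against 32.8% of all genes called lower and 3.29% called lower at least 2-fold. Their median change was -1.33, in all 31 genes the groups did not overlap (69.6% of all genes), and on the deposited scale 30 were called lower with a median of -1.49. Like the other lists, this one was chosen with earlier results of these data known, so its count is a description and not an independent test.

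Several amino acid synthesis genes fell far, after CHAC1 and STC2, which changed most. PHGDH, the first enzyme of serine synthesis, measured 1081, 1283 and 1238 with MI-503, against 13891, 12603 and 13063 with DMSO. The fall left 0.0909 of the DMSO mean (-3.46 ± 0.0571, adjusted p = 3.10e-13). PSAT1, the next enzyme of the serine pathway, measured 4979, 4896 and 4721 with MI-503, against 32394, 30632 and 31661 with DMSO. ASNS, the asparagine synthetase, measured 3465, 3348 and 3260 in MI-503 libraries and 20465, 19239 and 19307 in DMSO libraries. The libraries of each group lay close together in both genes, and the changes were -2.70 ± 0.0302 for PSAT1 and -2.55 ± 0.0333 for ASNS. ALDH1L2, a mitochondrial folate enzyme gene, changed by -3.12 ± 0.0487.

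CHAC1, which degrades glutathione, measured 142, 172 and 211 with MI-503, against 3549, 3347 and 3455 with DMSO, and fell to 0.0504 (-4.31 ± 0.106, adjusted p = 1.12e-11). STC2, a secreted glycoprotein gene, measured 199, 212 and 222 in MI-503 libraries and 3635, 3563 and 3384 in DMSO libraries (-4.06 ± 0.0532). DDIT4, an inhibitor of mTORC1, changed by -2.91 ± 0.0420. NUPR1, a stress-induced nuclear protein gene, was low, with 5.20, 5.16 and 2.81 against 66.2, 49.6 and 43.4 for DMSO (-3.34 ± 0.291). It was kept through its DMSO libraries only, so its direction was fixed by the filter.

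Transport and charging genes followed. SLC7A11, the cystine importer, measured 2102, 1967 and 1933 with MI-503, against 16474, 15161 and 15974 with DMSO (-2.99 ± 0.0394). Its antisense transcript SLC7A11-AS1 changed by -3.22 ± 0.0694, and since the strand used in counting was not given, reads of the pair cannot be told apart. AARS, the alanyl-tRNA synthetase, measured 12524, 12613 and 12710 in MI-503 libraries and 31181, 29446 and 30574 in DMSO libraries (-1.27 ± 0.0269). ATF4 RNA itself measured 25310, 25978 and 26186 with MI-503, against 52743, 51621 and 51978 with DMSO, a fall to 0.496 (-1.01 ± 0.0242). The smallest changes in the list were those of CEBPB (-0.59 ± 0.0701), which did not pass on the deposited scale, and ATF3 (-0.69 ± 0.0675), both transcription factor genes.

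Promoters of these genes were searched for TGATGNAA, the core of the element that ATF4 binds with a C/EBP partner, on both strands from 250 bases before to 50 bases after the RefSeq start; it was the only motif searched. Of the 31 genes 24 matched a RefSeq promoter (GRCh38.p14), and 6 of those held it (25%), against 214 of 11647 matched tested genes (1.84%) and 1003 of 27305 promoters in the table (3.67%). It stood in 27 of 358 promoters of genes that fell at least 2-fold (7.54%), in 22 of 339 without the ATF4 list (6.49%), and in 11 of 421 promoters of genes that rose at least 2-fold (2.61%). The ATF4 list holds genes known to respond to ATF4, so a high share in it was likely whatever MI-503 did. A match is a description of letters and not of binding, and a window without one says nothing of the factor.

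**Figure D3:**
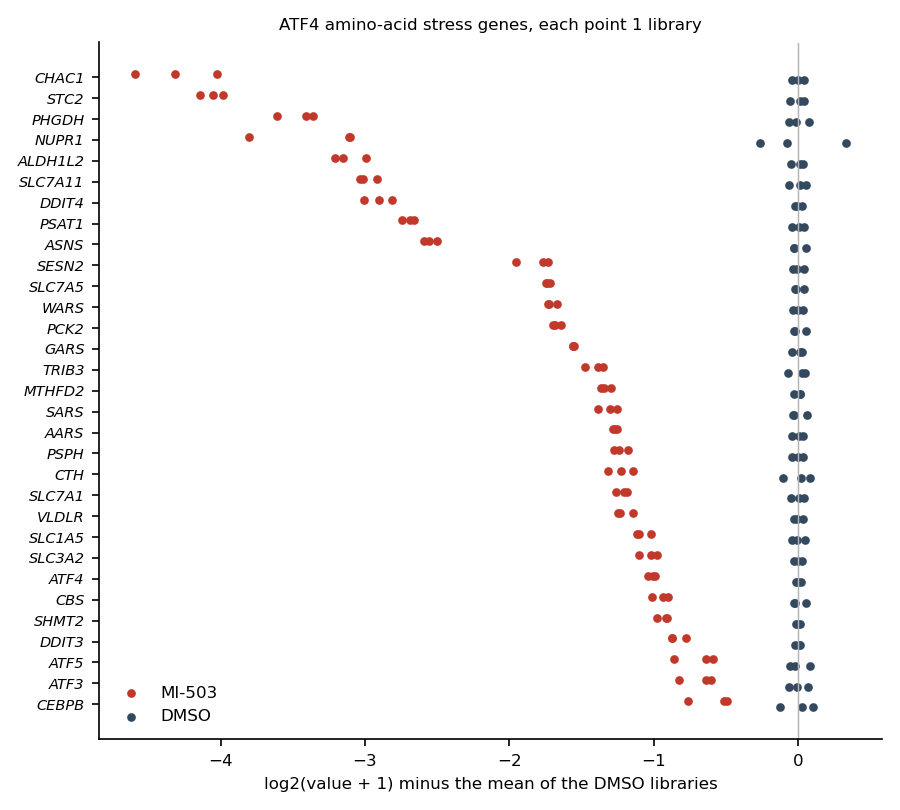
Change of the 31 ATF4 amino-acid stress genes in each library, as log2(value + 1) on the median-of-ratios scale minus the mean of the DMSO libraries, with MI-503 libraries and DMSO libraries as separate points. All MI-503 points lie left of the DMSO points of the same gene, and mean changes run from -4.31 (CHAC1) to -0.59 (CEBPB).

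Some genes of amino acid metabolism outside the list were picked because they fell, so they are given as values and add nothing to the count above. ASS1, which makes argininosuccinate on the way to arginine, measured 2436, 2767 and 2685 with MI-503, against 23196, 21833 and 21776 with DMSO (-3.08 ± 0.0442). GPT2, a mitochondrial alanine aminotransferase gene, changed by -2.06 ± 0.0439, SLC38A1, a glutamine transporter gene, by -1.92 ± 0.0350, BCAT1, a branched-chain aminotransferase gene, by -1.82 ± 0.0297, CARS by -1.76 ± 0.0306 and MARS by -1.59 ± 0.0264, the last pair being tRNA synthetase genes. The glycine transporter gene SLC6A9 (-3.46 ± 0.113) and the peptide hormone gene ADM2 (-3.88 ± 0.0642) were among the 12 largest falls of genes with a mean of at least 100 in 1 group and groups that did not overlap.

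The unfolded protein response list, whose genes serve protein folding in the endoplasmic reticulum, did not move as 1 group. Of 17 genes 6 rose and 8 fell, with a median of 0.01 that is -0.15 on the deposited scale, where 0 were called higher and 2 lower. HERPUD1, a degradation factor gene, changed by -0.99 ± 0.0378, XBP1, a transcription factor gene, by -0.72 ± 0.0266, HSPA5, the main lumenal chaperone gene, by -0.51 ± 0.0419 and SDF2L1 by 0.49 ± 0.0607.

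Monocyte genes moved in both directions. Of 31 tested monocyte and macrophage genes 12 rose and 14 fell, against 32.8% of all genes in each direction. At least 2-fold, 3 rose and 6 fell (3.78% and 3.29% of all genes). The list median was 0.00, which is -0.16 on the deposited scale and 0.05 with equal library totals. Deposited-scale calls were 4 higher and 9 lower. ITGAM, the integrin alpha chain CD11b and a standard differentiation marker, measured 1059, 1138 and 1201 with MI-503, against 209, 230 and 197 with DMSO. The groups were wholly apart, and the gene rose 5.33-fold (2.41 ± 0.0710, adjusted p = 5.31e-11). ITGAX, its neighbour on chromosome 16 and the chain CD11c, rose by 1.55 ± 0.0650 and MARCO, a scavenger receptor gene of macrophages, by 2.01 ± 0.0801. LYZ, which encodes lysozyme, rose 1.57-fold (0.65 ± 0.0238) and did not pass on the deposited scale.

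Downward, CSF1R, the receptor of macrophage colony-stimulating factor, measured 195, 206 and 143 with MI-503, against 1012, 995 and 965 with DMSO. With 0.182 times the DMSO mean, it fell (-2.46 ± 0.110, adjusted p = 2.05e-09). VCAN, a matrix proteoglycan gene of classical monocytes, measured 4750, 4237 and 4465 in MI-503 libraries and 18509, 17362 and 18377 in DMSO libraries (-2.01 ± 0.0406). CD86, a costimulatory ligand gene, changed by -1.82 ± 0.0451, and CD14, the lipopolysaccharide coreceptor, by -0.68 ± 0.0643. The myeloid transcription factor genes CEBPA (-0.30 ± 0.0442) and SPI1 (-0.21 ± 0.0310) fell slightly and did not pass on the deposited scale.

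Oxidase and S100 genes mostly fell. Of 14 genes 3 rose and 10 fell, with a median of -0.47, and on the deposited scale 3 were higher and 6 lower. CYBB, the catalytic subunit of the phagocyte oxidase, measured 15382, 14920 and 15055 with MI-503, against 49766, 50671 and 50818 with DMSO (-1.74 ± 0.0241). S100P, a calcium-binding protein gene, measured 6.5, 16.5 and 5.63 in MI-503 libraries and 234, 211 and 177 in DMSO libraries (-4.44 ± 0.304). It was kept through its DMSO libraries (27 reads with MI-503 and 689 with DMSO), so its direction is not independent of the filter. The pair S100A8 and S100A9, which form calprotectin of neutrophils and monocytes, changed by -1.05 ± 0.0513 and -0.97 ± 0.0377. S100A4, a calcium-binding protein gene linked to cell motility, rose by 1.56 ± 0.0480.

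Of 15 tested granule genes 7 rose and 4 fell, against 32.8% of all genes in each direction, with a median of 0.23. On the deposited scale 4 were called higher and 2 lower. SERPINB10, a serpin gene of myeloid cells, measured 5185, 4865 and 4680 with MI-503, against 454, 482 and 471 with DMSO, a 10.4-fold rise (3.38 ± 0.0457, adjusted p = 1.09e-13). CST7, an inhibitor of cathepsins, rose by 1.86 ± 0.0456, PRTN3, the granule protease proteinase 3, by 1.14 ± 0.0375 and ELANE, neutrophil elastase, by 0.23 ± 0.0470. BPI, a bactericidal protein gene, rose from a low base, with 36.4, 25.8 and 33.8 against 10.1, 7.44 and 10.9 for DMSO (1.66 ± 0.257). It was kept by the filter through its MI-503 libraries. MPO, the granule peroxidase, did not pass (-0.29, adjusted p = 0.120).

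Of 10 tested chemokine and chemoattractant receptor genes that guide phagocytes and other leukocytes, 3 rose and 6 fell, with a median of -0.80 (1 higher and 6 lower on the deposited scale). FPR1, a receptor of bacterial formyl peptides, measured 22.1, 27.9 and 25.3 with MI-503, against 233, 293 and 254 with DMSO (-3.32 ± 0.135). C5AR1, the receptor of complement C5a, changed by -3.02 ± 0.268 and FPR2 by -2.08 ± 0.316, both at levels under 60, whereas C3AR1, the receptor of complement C3a, rose by 2.07 ± 0.133. CCR1 and CXCR4, chemokine receptor genes, changed by -0.86 ± 0.0301 and -0.74 ± 0.0259. Of 19 cytokine and growth factor receptor genes 4 rose and 9 fell (1 higher and 3 lower on the deposited scale), with IL7R at 1.02 ± 0.0664 and IL10RA at -0.71 ± 0.0570. Of 17 integrin and adhesion genes 10 rose and 6 fell, against 32.8% of all genes in each direction. Their median was 0.10 (-0.06 on the deposited scale, with 2 called higher and 3 lower). ITGB7, an integrin beta chain gene, was at -1.23 ± 0.0649.

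Only 3 of 13 MHC class II genes were kept, and all 3 rose (2 on the deposited scale). CIITA, the activator of class II transcription, measured 96.3, 101 and 105 with MI-503, against 23.9, 19 and 25.7 with DMSO (2.10 ± 0.160). CD74, the invariant chain, rose by 0.62 ± 0.0316, and HLA-DQB1 by 2.03 ± 0.475 at values of 13, 18.6 and 17.8 against 6.43, 4.13 and 0.987 for DMSO. HLA-DQB1 (47 reads with MI-503 and 13 with DMSO) was kept through its MI-503 libraries only. Its direction was therefore fixed by the filter, and it adds nothing to the count of rises. Of 12 tested stem and progenitor genes 6 rose and 3 fell, against 32.8% of all genes in each direction. Their median was 0.11 and is -0.05 on the deposited scale, where 0 were called higher and 2 lower. GATA2, a progenitor transcription factor gene, rose by 0.85 ± 0.0476 and LYL1, a related haematopoietic regulator gene, by 0.60 ± 0.0534, while TAL1, a haematopoietic regulator gene, changed by -0.88 ± 0.0967 and RUNX1, a core-binding factor gene, by -0.66 ± 0.0357.

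Mitosis genes more often rose than fell, by small amounts. Of 30 mitosis and spindle genes 23 rose and 0 fell, with a median of 0.25, and 1 was called higher on the deposited scale, where the median was 0.09. CENPE, a kinetochore motor, measured 24395, 21902 and 22072 with MI-503, against 10841, 11079 and 11291 with DMSO (1.04 ± 0.0384). KIF20A, a motor of cytokinesis, rose by 0.77 ± 0.0308 and CDC20, an activator of the anaphase-promoting complex, by 0.73 ± 0.0262. Of 34 DNA replication genes 8 rose and 16 fell, against 32.8% of all genes in each direction, with a median of -0.07. On the deposited scale 0 were called higher and 1 lower, with a median of -0.23. MCM6, a helicase subunit gene, changed by -0.74 ± 0.0275 and GINS1, a helicase cofactor gene, by 0.47 ± 0.0317.

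Inhibitors of cyclin-dependent kinases split. CDKN1A, which encodes p21, measured 10071, 10379 and 10376 with MI-503, against 5763, 6119 and 5689 with DMSO, and rose 1.76-fold (0.81 ± 0.0322), a change that did not pass on the deposited scale. CDKN1B, which encodes p27, measured 3080, 3038 and 3050 in MI-503 libraries and 5711, 5717 and 5844 in DMSO libraries (-0.91 ± 0.0284). CDKN2C, which encodes p18, changed by -1.62 ± 0.0550 and CDKN2A by -0.85 ± 0.0698. Of 19 cyclin, CDK and inhibitor genes 8 rose and 9 fell, with a median of -0.03 that is 0.03 with equal library totals, and on the deposited scale 0 were called higher and 6 lower. Of 23 p53 targets 13 rose and 5 fell, against 32.8% of all genes in each direction, with a median of 0.20. On the deposited scale, however, 0 were called higher and 1 lower, with a median of 0.04. SESN2, which is also in the ATF4 list, changed by -1.82 ± 0.0511. DDB2, a DNA repair gene under p53, rose by 0.58 ± 0.0290.

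Replication histone genes fell, 18 of 19 tested with 0 higher and a median of -0.30. Most of these messages lack a poly(A) tail and have near-identical copies, so their reads in polyadenylated RNA are uncertain, and 2 were called lower on the deposited scale. H1F0, a linker histone gene with a poly(A) tail, is counted in the list but is not a replication histone gene in the strict sense. It changed by -1.49 ± 0.0467 and was the 1 member that fell at least 2-fold. HIST1H2AE changed by -0.65 ± 0.0336 and HIST1H3D by -0.53 ± 0.0396. Among 16 BCL2 family genes 5 rose and 7 fell (0 higher and 2 lower on the deposited scale), and besides BCL2 the BH3-only gene BMF changed by -0.98 ± 0.0630 and BIK, another BH3-only gene, by 0.95 ± 0.139.

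Most mitochondrial respiration genes rose by a small amount. Of 33 nuclear oxidative phosphorylation subunit genes 29 rose and 4 fell, against 32.8% of all genes in each direction, with a median of 0.28. In 32 of the 33 the groups did not overlap, against 69.6% of all genes. COX5B, a cytochrome oxidase subunit gene, measured 7729, 7375 and 7344 with MI-503, against 4768, 4808 and 4813 with DMSO (0.64 ± 0.0293). NDUFA1, a complex I subunit gene, rose by 0.62 ± 0.0572. On the deposited scale the median was 0.12 and 0 of the 33 passed by limma (0 at an unadjusted p under 0.05), 0 by edgeR and 0 by DESeq2. Cytosolic ribosomal protein genes stayed near the median gene: 5 of 38 rose and 13 fell, between -0.23 and 0.19, with a median of -0.04 that is 0.02 with equal library totals, and on the deposited scale 0 passed by limma (0 at an unadjusted p under 0.05), edgeR or DESeq2. Of 29 MYC and ribosome biogenesis genes 6 rose and 16 fell, with a median of -0.10 (0 higher and 2 lower on the deposited scale). MXD1, a MAX partner that opposes MYC, changed by -1.56 ± 0.0429, RRP12, a ribosome assembly factor gene, by -0.60 ± 0.0465 and POLR3G, a polymerase III subunit gene, by 0.63 ± 0.0577.

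Genes of redox defence and iron handling rose more often than they fell. Of 21 NRF2 targets, which detoxify oxidants and electrophiles, 15 rose and 2 fell, 6 and 1 of them at least 2-fold, with a median of 0.30, and on the deposited scale 6 were called higher and 1 lower. AKR1C3, an aldo-keto reductase gene, measured 7467, 7126 and 7398 with MI-503, against 1403, 1356 and 1382 with DMSO (2.41 ± 0.0325). Its neighbours AKR1C2 (2.28 ± 0.0452) and AKR1C1 (1.93 ± 0.0586) rose too, but these paralogs on chromosome 10 are nearly identical and reads may be split between them. The 1 target that fell at least 2-fold was SLC7A11, the cystine importer described above. FTL, the ferritin light chain, measured 163770, 195166 and 191848 in MI-503 libraries and 74221, 73994 and 69950 in DMSO libraries (1.33 ± 0.0543), and MI-503 library 1 was the lowest of its group. Of 17 iron and heme genes 9 rose and 2 fell (5 higher and 0 lower on the deposited scale), with the biliverdin reductase gene BLVRA at 1.20 ± 0.0427, the heme transporter gene SLC48A1 at 1.19 ± 0.0635 and the iron exporter gene SLC40A1 at 1.17 ± 0.118.

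Lysosome genes rose more often than they fell, 20 against 8 of 33, with a median of 0.24, but on the deposited scale 3 were called higher and 0 lower, with a median of 0.08. NPC2, which moves cholesterol out of lysosomes, measured 4993, 5021 and 4951 with MI-503, against 1670, 1768 and 1807 with DMSO (1.51 ± 0.0357). CTSL, a cathepsin gene, rose by 1.04 ± 0.0333 and GLA, the alpha-galactosidase, by 0.85 ± 0.0323. Cholesterol synthesis changed little: 12 of 25 genes rose and 5 fell, none 2-fold, with a median of 0.12 that is -0.04 on the deposited scale. On that scale 0 passed by limma (2 at an unadjusted p under 0.05), 0 by edgeR and 2 by DESeq2. STARD4, a sterol carrier gene, rose by 0.86 ± 0.0548, HMGCS1, which makes HMG-CoA, by 0.37 ± 0.0386 and INSIG1, which retains the sterol sensor, by 0.62 ± 0.0433, and on the deposited scale none of these 3 passed. Of 10 sterol efflux genes 4 rose and 2 fell, with a median of 0.07 (-0.08 on the deposited scale), and of 12 fatty acid synthesis genes 4 rose and 6 fell, with FASN, the synthase, at 0.36 ± 0.0403. Of both lists 0 genes passed on the deposited scale by limma (0 at an unadjusted p under 0.05), edgeR or DESeq2.

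Sugar and oxygen genes gave mixed directions with a few large members. Of 24 glycolysis genes 4 rose and 12 fell, with a median of -0.06 that is 0.00 with equal library totals (1 higher and 2 lower on the deposited scale). PFKFB3, which raises glycolytic flux through fructose bisphosphate, changed by -1.22 ± 0.0345, and PFKM, the muscle phosphofructokinase, by 1.06 ± 0.0315. Of 16 hypoxia genes 5 rose and 6 fell (0 higher and 2 lower on the deposited scale). VEGFA, the vascular growth factor, measured 2579, 2775 and 2807 with MI-503, against 7667, 7605 and 7728 with DMSO (-1.50 ± 0.0352), and EGLN1, the oxygen sensor, changed by -1.54 ± 0.0693. Of 14 cytosolic chaperone genes 5 rose and 6 fell, with a median of 0.01 (-0.15 on the deposited scale, with 1 called higher and 0 lower), HSPB1 at 1.01 ± 0.0390 and DNAJB4 at -0.57 ± 0.0658.

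Among signalling outputs, STAT5 and NF-kB targets rose more often than they fell. Of 15 STAT5 targets 9 rose and 2 fell, with a median of 0.43 (3 higher and 0 lower on the deposited scale), STAT5A itself at 1.53 ± 0.113, ID1, an inhibitor of differentiation gene, at 1.09 ± 0.0751 and the feedback gene CISH at 1.05 ± 0.0649. Of 24 NF-kB targets 13 rose and 7 fell, and rises of at least 2-fold numbered 5, with a median of 0.33 (6 higher and 1 lower on the deposited scale). CCL3, a chemokine gene, measured 466, 499 and 596 with MI-503, against 97.4, 117 and 121 with DMSO (2.20 ± 0.109), and NFKBIE, an inhibitor of NF-kB, rose by 1.29 ± 0.0370. Of 22 ERK output genes 14 rose and 5 fell, with a median of 0.25, but on the deposited scale 0 were called higher and 1 lower, with a median of 0.09. The AP-1 gene FOS rose by 0.80 ± 0.0893, and the pleckstrin-homology gene PHLDA1 changed by -1.0 ± 0.0467. DUSP6, a phosphatase that restrains ERK, changed by -0.35 ± 0.0589 and did not pass on the deposited scale.

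Interferon-stimulated genes were lower more often than higher. Of 30 tested 7 rose and 17 fell, 2 and 10 of them at least 2-fold, with a median of -0.40, and on the deposited scale 4 were called higher and 13 lower. IFI44L measured 1.3, 0 and 0.938 with MI-503, against 74.4, 53.7 and 71.1 with DMSO, so that only 2 reads were counted in the MI-503 group, against 218 in the DMSO group. IFI44L was kept through its DMSO libraries only, so its direction was fixed by the filter. Reads with MI-503 were also few for IFI27 (22, against 130 with DMSO), IFI44 (12 against 51) and GBP1 (17 against 47). They were too few to reach the minimum in every MI-503 library, so these genes were kept with the help of DMSO libraries. Their direction is not independent of the filter. Like IFI44L, they are counted among the 10 falls of at least 2-fold. IFIT2, an RNA-binding antiviral protein gene, measured 31.2, 26.8 and 22.5 in MI-503 libraries and 105, 90.9 and 89.8 in DMSO libraries (-1.80 ± 0.163), and IFI27 changed by -2.29 ± 0.364. CXCL11, a chemokine that interferon also induces and that was not in the list, did the reverse. It measured 1539, 1506 and 1481 with MI-503, against 79.0, 86.8 and 65.2 with DMSO (4.28 ± 0.0927).

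The largest rise belonged to CDH6, an adhesion molecule of the cadherin family, with 2635, 2358 and 2794 in MI-503 libraries and 93.7, 87.6 and 70.1 in DMSO libraries (4.94 ± 0.0993, 30.8-fold). CSRP3, a LIM-domain protein gene best known from muscle, rose 18.0-fold and the secreted matrix regulator gene NOV 13.2-fold. Others were TNN, a tenascin gene (3.72 ± 0.110), the cadherin-like gene FAT1 (3.48 ± 0.328) and the leukocyte receptor gene CD84 (3.28 ± 0.192). The remaining 4 of the 12 largest rises besides SERPINB10 and CXCL11 were SH3TC2, BCO2, PTPRO and KIAA0040, between 7.96 and 9.55-fold. Each of the 12 was called higher on the deposited scale too.

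Of the falls, LSP1, which binds actin in leukocytes, measured 89.7, 58.8 and 61.0 with MI-503, against 1785, 1946 and 1977 with DMSO (-4.77 ± 0.129). H19, an imprinted noncoding RNA gene, measured 22.1, 11.4 and 26.3 in MI-503 libraries and 345, 439 and 462 in DMSO libraries (-4.38 ± 0.241). HOTS (-4.82 ± 0.391) overlaps H19 on the other strand, so reads of the pair cannot be told apart. SULF2, a heparan sulfate editing enzyme gene, changed by -3.84 ± 0.0745 and DHRS3, a retinal reductase gene, by -3.50 ± 0.140, and UBL4B and RHBDL3 were at -3.67 and -3.51.

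Some of the largest changes had a nearest tested gene that changed in the same direction. A neighbour here is the next tested gene on either side at any distance. For the 22 of 24 largest changes placed in RefSeq, 44 nearest tested neighbours were examined, and 7 were called in the same direction with at least a 2-fold change (of all genes, 3.78% rose and 3.29% fell that far). TNN and KIAA0040 each count once, and MIR675 (-3.34 ± 0.379, 7 reads with MI-503 and 111 with DMSO) is processed from H19 itself. TNN and KIAA0040 are neighbours on chromosome 1 (GRCh38, 175067833 to 175148075 and 175156986 to 175192987). KIAA0040 measured 1869, 1809 and 1884 with MI-503, against 247, 217 and 232 with DMSO, while TNR on its other side did not pass (-0.01, adjusted p = 0.968). SERPINB2 rose by 1.79 ± 0.0587 beside SERPINB10 on chromosome 18 and E2F8 by 1.08 beside CSRP3 on chromosome 11. ART3 rose by 1.94 ± 0.0320 on chromosome 4, but its gene model (76011190 to 76112786) contains CXCL11 (76033682 to 76036070), so the pair overlap and reads between them may not be separable. On chromosome 11 the gene model of MRPL23 (1947332 to 2014944) spans H19 (1995176 to 2001266), and MRPL23 changed by 0.21 ± 0.0590. MRPL23-AS1, the other nearest neighbour of H19, rose by 1.80 ± 0.185. MIOX changed by -2.96 ± 0.408 beside ADM2 on chromosome 22, at a low level (6 reads with MI-503 and 77 with DMSO). MIOX and MIR675 were kept through their DMSO libraries only, so their direction was fixed by the filter. SEMA3A, a guidance cue gene chosen after its value was seen, rose by 2.67 ± 0.0489 on chromosome 7 (83955777 to 84492725). The next tested gene on 1 side was HGF, the hepatocyte growth factor, at a distance (81699010 to 81770047). HGF measured 11433, 10933 and 10734 with MI-503 and 2236, 2322 and 2277 with DMSO (2.27 ± 0.0322). On the other side SEMA3D (84995553 to 85250243) rose by 2.14 ± 0.268 at a low level, with 107 reads for MI-503 and 27 for DMSO. SEMA3D was kept through its MI-503 libraries (deposited DMSO values 4.90, 12.7 and 9.32), so its direction is not independent of the filter.

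Among DNA methylation and polycomb genes 5 of 22 rose and 10 fell, with a median of -0.06 (1 higher and 0 lower on the deposited scale). EZH2, the polycomb methyltransferase, changed by -0.53 ± 0.0354, CBX8, a polycomb reader gene, by 0.65 ± 0.0537 and IDH2, which supplies oxoglutarate to dioxygenases, by 0.58 ± 0.0280. Of the lists for other cell types, 0 of 3 erythroid and megakaryocyte genes passed by limma, edgeR or DESeq2 (0 at an unadjusted p under 0.05), NKG7, a cytotoxic granule gene, rose alone among 3 T and NK genes (0.60 ± 0.0938), and 0 of 4 B cell genes rose and 3 fell. Of the T and NK genes 0 passed on the deposited scale by limma (0 at an unadjusted p under 0.05), edgeR or DESeq2, and 0 B cell genes were called higher and 3 lower. EBF1, a B cell transcription factor, was the main B cell member and measured 87.1, 73.3 and 70.3 with MI-503, against 353, 341 and 346 with DMSO (-2.16 ± 0.0985). Of 6 epithelial and fibroblast genes 2 rose, FAP, a surface protease (2.43 ± 0.0629), and PECAM1 (0.78 ± 0.0541), 1 of them on the deposited scale. Whether such cells contributed was not tested.

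**Figure D4:**
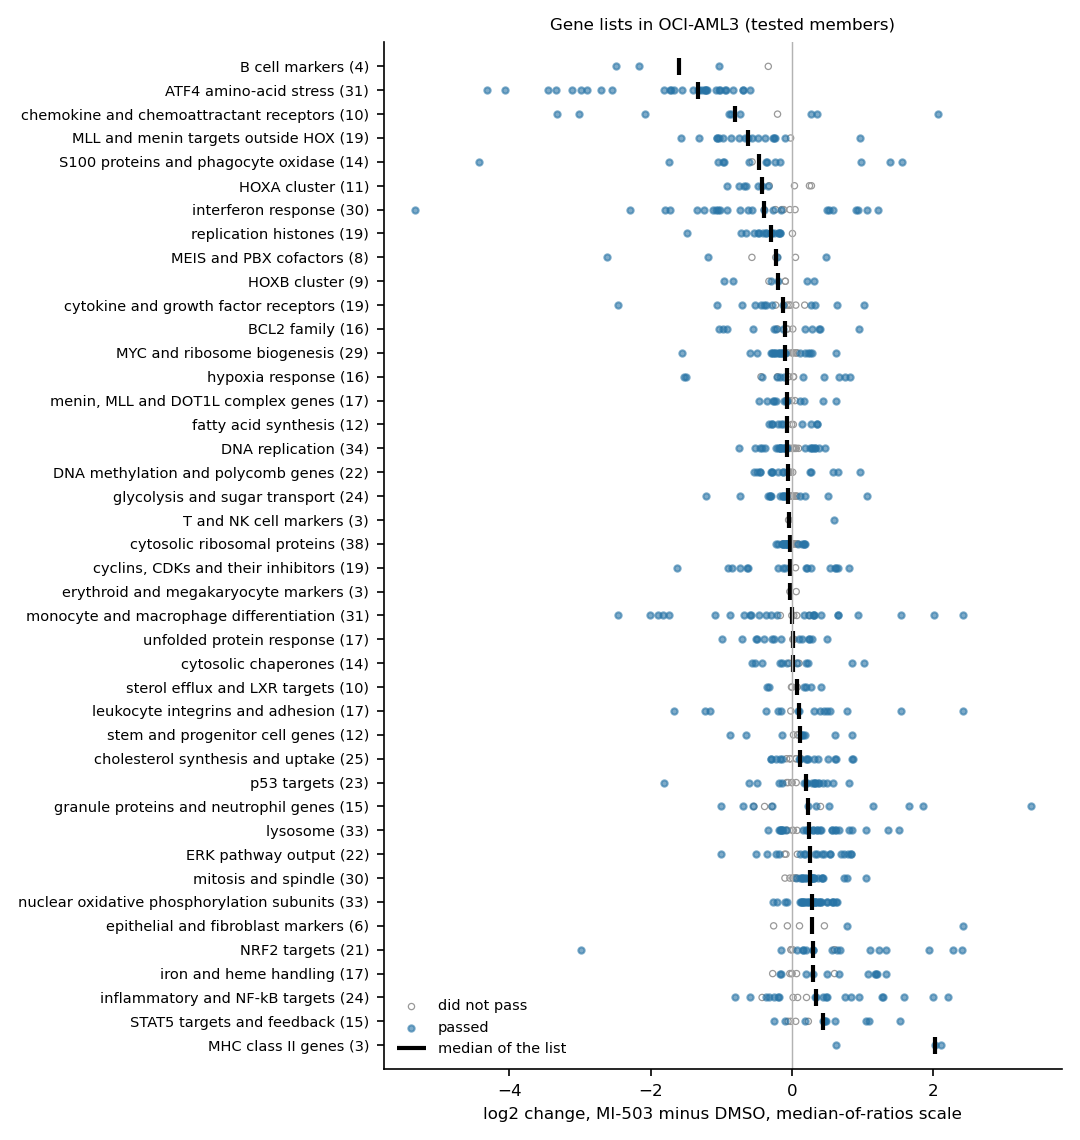
Log2 change (MI-503 minus DMSO, median-of-ratios scale) of each tested member of the gene lists with at least 3 tested members, 1 row per list with the number of tested members in brackets, filled where the gene passed, with the list median as a black bar. The ATF4 list lies wholly left of 0 (median -1.33), mitosis (0.25) and oxidative phosphorylation (0.28) lie mostly right of it, and medians near 0, such as cholesterol synthesis (0.12, or -0.04 on the deposited scale), turn with the scale.

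The MI-503 effect in OCI-AML3 was set against that in MOLM13, which received the same dose for the same 4 days, and in MV411, which received it for 3 days, so that there line and time cannot be told apart. Both differences use the same OCI-AML3 libraries. The OCI-AML3 effect differed from that in MOLM13 for 8186 of 13030 shared genes (62.8%), 3983 with the higher value in OCI-AML3 (30.6%) and 4203 with the lower (32.3%). Against MV411 it differed for 8581 of 13447 (63.8%), 4224 higher (31.4%) and 4357 lower (32.4%). On the deposited scale these counts were 3222 (2610 higher and 612 lower) and 2629 (898 higher and 1731 lower). In the deposited values the median gene changed by -0.53 with MI-503 in MOLM13 and by -0.16 in OCI-AML3. The MOLM13 shift was 0.692-fold (two-sided exact permutation test p = 0.1, the lowest possible). In MV411 the mean shift was -0.001 in MI-503 libraries and 0.010 in DMSO libraries. Effects in each line are relative to its own median gene, and the part of these shifts in the counts was not tested. Within MOLM13 8018 of 13393 genes passed (59.9%), 29.8% higher and 30.1% lower, and within MV411 8981 of 13951 (64.4%), 32.1% higher and 32.3% lower. The libraries of these lines were shallower, with 23281330 to 25913968 reads with MI-503 and 25299839 to 27240357 with DMSO in MOLM13, and 25245088 to 26175174 and 25166887 to 26554728 in MV411.

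The fall of ATF4 genes was larger in OCI-AML3 than in MOLM13. Over the 30 genes tested in both lines the median was -1.32 in OCI-AML3 and -0.33 in MOLM13, where 3 rose and 23 fell, and 28 of the 30 had a lower effect in OCI-AML3 by the test of the difference, 0 a higher. In MV411 the median was -1.08 (-1.33 in OCI-AML3 for the same 31 genes), with 1 higher and 29 lower. SLC7A11 had effects of -2.99 in OCI-AML3, 0.36 in MOLM13 and -0.79 in MV411, and PHGDH by -3.46, -0.23 and -1.53 in the same order of lines.

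Monocyte genes had lower effects in OCI-AML3 than in the fusion lines. In MOLM13 21 of 22 tested monocyte genes rose and 0 fell, with a median of 1.00, and in MV411 18 of 27 rose and 5 fell, with a median of 0.39. Over the same genes the OCI-AML3 medians were 0.13 and 0.02 (the 31 genes together turn sign with the scale, as given above). The effect was lower in OCI-AML3 for 17 of 22 against MOLM13 and for 17 of 27 against MV411. CSF1R had effects of -2.46 in OCI-AML3 and 2.43 in MOLM13, a difference of -4.88 ± 0.166 (adjusted p = 7.00e-14), with a change of 0.32 in MV411. CYBB had effects of -1.74 in OCI-AML3, against 2.76 in MOLM13 and 2.55 in MV411. Of S100 and oxidase genes 11 of 13 rose and 0 fell in MOLM13, and 12 of 13 had a lower effect in OCI-AML3. ITGAM went the other way, with 2.41 in OCI-AML3, 1.21 in MOLM13 and -0.17 in MV411.

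MEIS1 fell in all 3 lines, with changes of -2.62 in OCI-AML3, -1.65 in MOLM13 and -2.30 in MV411. MEF2C and PBX3 differed more. MEF2C had effects of -0.26 in OCI-AML3, -2.36 in MOLM13 and -2.80 in MV411, and the difference from MOLM13 was 2.10 ± 0.0550. PBX3 had effects of -1.20, -2.70 and -1.79 in the same order, with a difference from MOLM13 of 1.5 ± 0.0865. BCL2 had effects of -1.03 in OCI-AML3, -0.08 in MOLM13 and -1.07 in MV411. HOXA9 had effects of -0.34 in OCI-AML3, -0.33 in MOLM13 and -1.87 in MV411.

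Metabolic and growth lists parted as well. Cholesterol genes had a median of 0.12 in OCI-AML3 (-0.04 on the deposited scale), 1.06 in MOLM13, where 23 of 25 rose and 2 fell, and -1.30 in MV411, where 1 of 25 rose and 23 fell. The effect in OCI-AML3 was lower than in MOLM13 for 22 of 25 and higher than in MV411 for 23 of 25. Oxidative phosphorylation genes had a median of 0.28 in OCI-AML3, -0.08 in MOLM13 and 0.03 in MV411, with a higher effect in OCI-AML3 for 28 of 33 against MOLM13. Mitosis genes had medians of 0.25, -0.06 and -0.04 in the same order, with 25 of 30 higher in OCI-AML3 than in MOLM13. Ribosomal protein genes had medians of -0.04 (0.02 with equal library totals), 0.06 and 0.43, and the effect in OCI-AML3 was lower than in MV411 for all 38. ERK output genes tested in both lines had medians of 0.18 in OCI-AML3 and 0.13 in MOLM13 over 20 genes, and 0.25 in OCI-AML3 and -1.16 in MV411 over 18 genes, of which 17 had a higher effect in OCI-AML3 than in MV411.

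**Figure D5:**
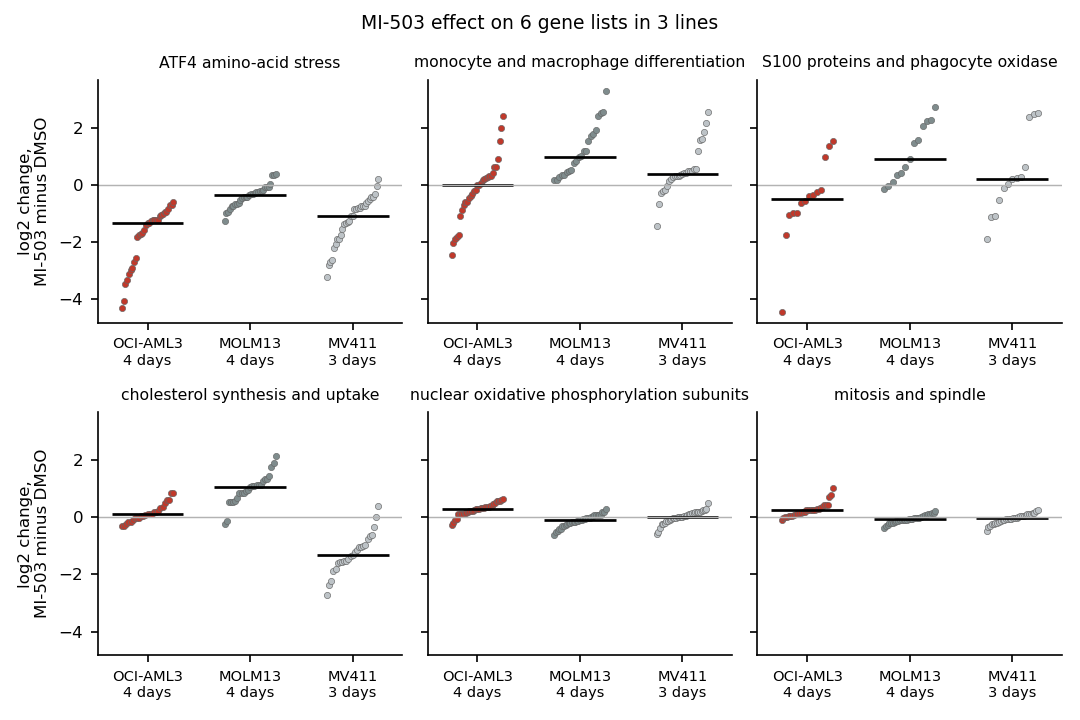
Log2 change (MI-503 minus DMSO, median-of-ratios scale of each line) of the tested members of 6 gene lists in OCI-AML3, MOLM13 and MV411, 1 point per gene in order of size, with black lines at the medians. ATF4 genes lie lowest in OCI-AML3 (median -1.33, against -0.33 in MOLM13 and -1.08 in MV411), monocyte genes spread around 0 there but lie mostly above it in MOLM13 (median 1.00), and cholesterol genes lie near 0 in OCI-AML3 (median 0.12, or -0.04 on the deposited scale).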

How the data were processed

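Polyadenylated RNA of OCI-AML3 was read from 1 of 3 deposited tables (25680 genes each; 0 per-sample columns were left out), and MI-503 and DMSO columns of MOLM13 and MV411 served for differences between lines. Per the labels, reads were paired, 50 bp long, triplicates were called biological and spike-in RNA was added per cell number; how the cultures were separated was not described, so p-values measure the spread between these libraries. Per the submitters' processing notes, values were made with DESeq version 2 on hg38. The aligner, counter and annotation are not given in the sources used here. The deposited values are called signal, since per the labels they are normalised; within a tolerance of 0.001, 100% of those in the OCI-AML3 table were whole reads divided by 1 factor per library, and spike-in reads were not used here.

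Values were divided by median-of-ratios factors of the genes (main scale) or left as deposited. The 15700 genes that reached 10 in 3 or more libraries were tested on log2(value + 1) by limma 3.58.1 (R 4.3.3) with a variance trend. Tests were two-sided, p-values were adjusted by Benjamini-Hochberg, and calls were made under 0.05. Between lines, the effects of MI-503 were subtracted for genes that passed the same minimum in both lines. All p-values were adjusted over all genes tested. edgeR 4.0.16 and DESeq2 1.42.0 were run on the recovered reads as alternatives, beside other pseudocounts, filters, scalings, a replicate block and leaving out each library. The fit was tested on simulated data in which only a small part of the genes changed. Most genes were called here, so that test does not give the error rate in these data.

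The members, the 42 lists and the naming rule were chosen with earlier results of these data known. Genes named were 30 listed ones, up to 4 per list (those that passed and moved furthest), 12 rises and 12 falls of greatest size among genes with non-overlapping groups and a mean of 100 or more in 1 group, and the 5 largest line differences each way with that mean; other genes were named after their values were seen. Gene coordinates and promoters are from RefSeq, GRCh38.p14. Some items are not reported here.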

Additional observations from a re-analysis of the deposited data

Results flagged for a closer look

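Of the genes named, 27 were singled out because the MI-503 effect differed between OCI-AML3 and another line by limma's test of the difference (adjusted p under 0.05) and either was among the 5 largest such differences per direction or, for the listed genes against MOLM13, was at least 2-fold: 17 against MOLM13 and 10 against MV411. Values are log2 effects of MI-503 on the median-of-ratios scale of each line, the first being OCI-AML3 minus the other line.

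Against MOLM13, effects were higher in OCI-AML3 for PBX3 1.5 (-1.20 in OCI-AML3 and -2.70 in MOLM13), MEF2C 2.10 (-0.26 in OCI-AML3 and -2.36 in MOLM13), ITGAM 1.21 (2.41 in OCI-AML3 and 1.21 in MOLM13), CDKN1A 1.11 (0.81 in OCI-AML3 and -0.29 in MOLM13), CXCL11 4.95 (4.28 in OCI-AML3 and -0.67 in MOLM13), CSRP3 4.10 (4.17 in OCI-AML3 and 0.07 in MOLM13), FAT1 3.44 (3.48 in OCI-AML3 and 0.04 in MOLM13), EPHA2 5.01 (2.27 in OCI-AML3 and -2.73 in MOLM13) and ID3 4.27 (0.92 in OCI-AML3 and -3.35 in MOLM13). Effects were lower in OCI-AML3 for LYZ -1.15 (0.65 in OCI-AML3 and 1.80 in MOLM13), MPO -1.60 (-0.29 in OCI-AML3 and 1.32 in MOLM13), HMGCS1 -1.79 (0.37 in OCI-AML3 and 2.16 in MOLM13), CSF1R -4.88 (-2.46 in OCI-AML3 and 2.43 in MOLM13), S100P -5.90 (-4.44 in OCI-AML3 and 1.46 in MOLM13), LSP1 -5.78 (-4.77 in OCI-AML3 and 1.00 in MOLM13), PDYN -4.85 (-0.93 in OCI-AML3 and 3.92 in MOLM13) and FGR -4.69 (-1.70 in OCI-AML3 and 2.99 in MOLM13). S100P was kept in OCI-AML3 through its DMSO libraries, as given above.

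Against MV411, where treatment lasted 3 days and not 4, effects were higher in OCI-AML3 for AKR1C2 7.34 (2.28 in OCI-AML3 and -5.06 in MV411), AKR1C1 5.65 (1.93 in OCI-AML3 and -3.72 in MV411), CTTN 5.55 (1.79 in OCI-AML3 and -3.75 in MV411), C1orf186 5.44 (0.39 in OCI-AML3 and -5.05 in MV411) and CDHR1 5.29 (-0.29 in OCI-AML3 and -5.58 in MV411). AKR1C1 and AKR1C2 are close paralogs, and reads may be split between them. Effects were lower in OCI-AML3 for CYBB -4.29 (-1.74 in OCI-AML3 and 2.55 in MV411), FPR1 -4.11 (-3.32 in OCI-AML3 and 0.79 in MV411), PRAM1 -3.75 (-1.08 in OCI-AML3 and 2.67 in MV411), S100A8 -3.56 (-1.05 in OCI-AML3 and 2.51 in MV411) and FAM198B -3.48 (0.63 in OCI-AML3 and 4.10 in MV411). OCI-AML3 libraries were deeper than those of the other lines, and the part of depth in these differences was not tested.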

How the results depend on the processing

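The count of genes called on the median-of-ratios scale, 10291, stayed within 1.5 times that value under every alternative run, from 9376 to 10827 with 1 library left out. Equal library totals gave 10331, of which 58.8% were higher, against 50.0% with the main scaling, and moved the median gene to 0.05. On the deposited scale the median gene was -0.16, 36.1% of calls were higher, and the 1676 calls moved to 778 to 3396 with 1 library left out: 866 without MI-503 replicate 1, 1039 without MI-503 replicate 2, 3396 without MI-503 replicate 3 and 778 without DMSO replicate 3. Without MI-503 replicate 1, which differed most from its group, on the median-of-ratios scale 0 of 31 ATF4 genes were higher and 31 lower, 1 and 17 of 19 menin targets, 29 and 4 of 33 oxidative phosphorylation genes, 24 and 1 of 30 mitosis genes, 12 and 14 of 31 monocyte genes and 3 and 10 of 14 S100 and oxidase genes. With the spread of each gene taken alone, an alternative chosen after seeing the data, 0 passed on the deposited scale and 8975 on the median-of-ratios scale. edgeR and DESeq2 with their own factors called 10352 and 9514. Line differences called 3222 (OCI-AML3 minus MOLM13) and 2629 (OCI-AML3 minus MV411) on the deposited scale, against 8186 and 8581, and 7751 to 8271 and 8108 to 8522 with 1 library left out; the cause was not tested.

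In their deviations from the group means, same-numbered libraries correlated at -0.01, 0.04 and -0.03, and differently numbered ones between -0.06 and 0.07. With 3 libraries per group these values cannot show whether cultures were set up in pairs, which was not described. With the replicate number as a block 1012 genes passed on the deposited scale, 9958 on the median-of-ratios scale, 8078 for the MOLM13 difference and 8316 for the MV411 difference.

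Over 241 named genes and 4320 gene settings, 4209 kept their call, 107 lost it and 3 gained it. In 1 setting a called gene turned direction, MYC at -0.053 on the deposited scale. Direction was compared only for genes called in the main fit, so a gene without a call there may turn sign uncounted. What depth limits was not tested.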
